A study of Mus musculus with 4 samples.

Results

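The mitochondrial ribosomal protein genes were taken as the protein-coding genes whose symbol begins with Mrpl or Mrps followed by a number, and 78 of the 54232 genes in the count table met that rule. They were measured by bulk RNA sequencing of RPP631, a mouse small cell lung cancer (SCLC) cell line, after 48 h with DMSO, the solvent vehicle, or with 100 nM YKL, named in the series title as a blocker of CDK7, a kinase of transcription and the cell cycle. Each of the groups held 2 libraries of the same line, with no other genotype or agent named in the labels. The comparison addressed how transcript levels in these tumour cells differed between the inhibitor and its vehicle.

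Mitochondria keep a small genome that encodes a few subunits of the respiratory chain, and these are translated inside the organelle by a ribosome of its own. Its RNAs are mitochondrially encoded, whereas all of its proteins are encoded in the nucleus, made in the cytosol and imported. The large subunit, whose proteins mostly carry Mrpl symbols, forms the peptide bond, and the small subunit, with the Mrps symbols, reads the mRNA. In each subunit, some proteins descend from bacterial ribosomal proteins and others were added in the mitochondrial lineage. Some symbols are historical: Mrps30 and Mrps18a encode proteins of the large subunit, and Mrps36 is now known as a component of the alpha-ketoglutarate dehydrogenase complex.

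The libraries held 29817387 to 34189709 counts assigned to genes, and 16749 genes had enough counts to be tested. Levels are given as CPM, the counts of a gene relative to the total of its library after TMM scaling, and changes as the log2 fold change of YKL over DMSO from edgeR's quasi-likelihood test, with p-values adjusted over all genes tested. CPM is a share of a library, so fewer cells of a type and less RNA per cell cannot be told apart in these bulk samples. The neuroendocrine marker Chga, which encodes a protein of secretory granules, had 536.7 to 758.9 CPM in the 4 libraries, and the summed level of 6 leukocyte markers was 2.93 to 7.93 CPM, with no count of Cd3e in any library. Of these markers edgeR called Ptprc, the pan-leukocyte antigen, higher in YKL, with 0 and 2 counts in DMSO and 25 and 23 counts in YKL (adjusted p = 0.0392). The summed level of 5 fibroblast markers was 12.7 and 25.2 CPM in DMSO and 44.7 and 18.1 CPM in YKL, most of it from Pdgfra. Whether other cell types took part in any difference below was not tested.

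Of the 78 genes, 77 passed the filter and none of them was called between YKL and DMSO at an adjusted p under 0.05. Over all genes tested, 3.54% were called, 1.44% lower and 2.1% higher in YKL. The smallest adjusted p among the mitoribosomal genes was 0.0541, for Mrpl48. At an unadjusted p under 0.05 there were 11 of 77, or 14.3%, of which 5 had lower and 6 had higher values in YKL, against 21.2% of all genes tested. DESeq2 on the same counts called 3 of them, Mrpl48 and Mrpl54 lower and Mrps6 higher, where it called 10.2% of all genes with an adjusted p. Of 77 listed in the authors' deposited table, 14 had an adjusted p under 0.05, or 18.2%, there, with 7 higher and 7 lower, against 27.8% of the 15936 genes in that table. The set therefore held no larger share of calls than the background under any of these tests.

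The changes were small in size. The absolute log2 fold change was under 0.5 for 66 of 77 genes, or 85.7%, against 73.6% of the 11244 protein-coding genes that averaged 5 CPM or more. Its median was 0.23 for the mitoribosomal genes, 0.29 for those protein-coding genes and 0.35 for all genes tested. The 95% interval of the fold change lay within a 2-fold change either way for 67 of 77, or 87.0%, against 46.2% of all genes tested and 67.6% of the protein-coding genes at that level. Within a 1.5-fold change it lay for 18 of 77, against 13.3% of all genes tested, so for most of these genes it reached past 1.5-fold. These intervals are not adjusted for the number of genes tested. With 2 libraries a group, a 1.84-fold difference, that of Mrpl48, was not called by edgeR. The 10 genes whose interval reached past 2-fold were Mrpl23, Mrpl48, Mrpl54, Mrps6, Mrps10, Mrps12, Mrps25, Mrps28, Mrps33 and Mrps35, and these were listed for their intervals after the values were seen.

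**Figure D1:**
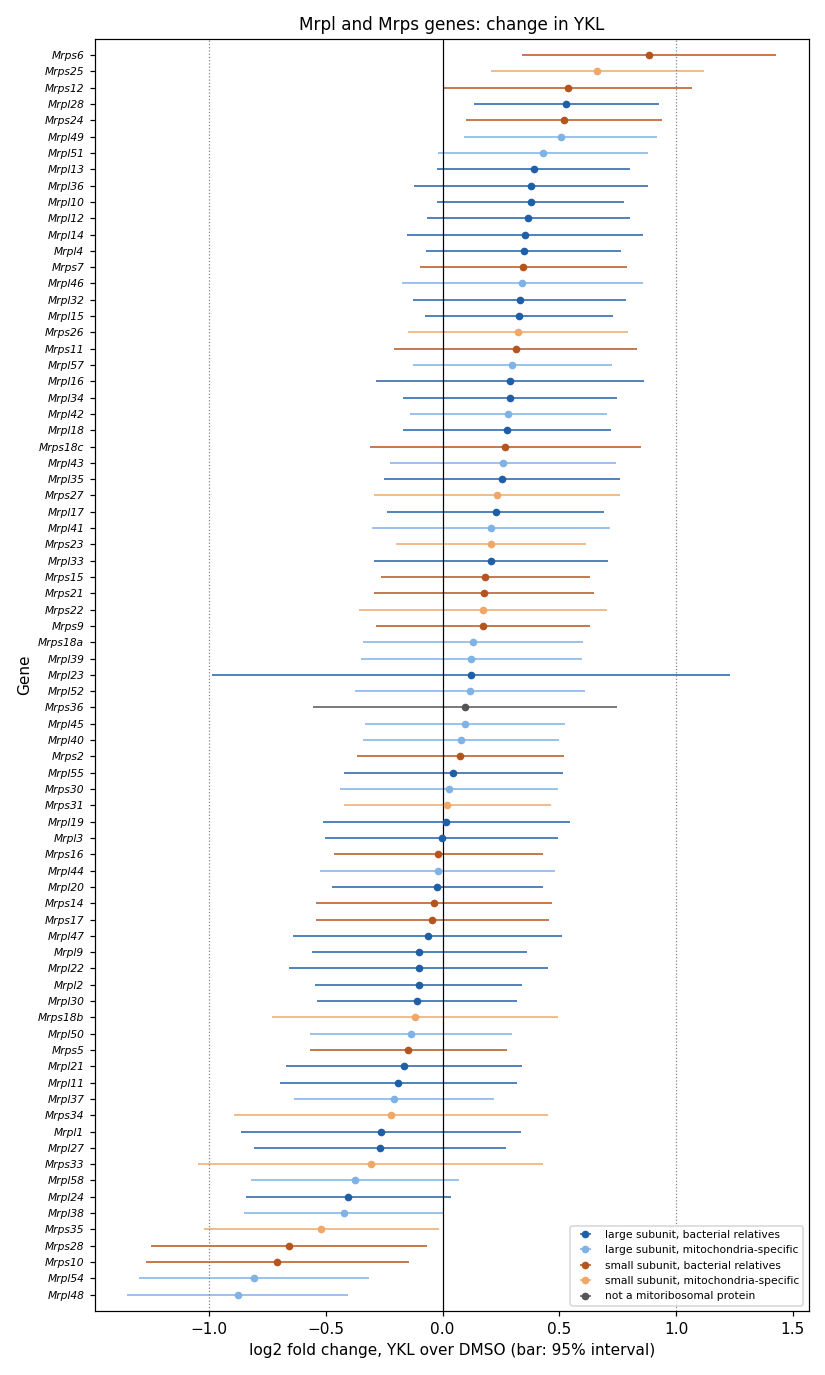
Log2 fold change of YKL over DMSO for the 77 tested genes, 1 row a gene, with the 95% interval as a bar and the colour giving the subunit and the origin of the protein. The points run from -0.88 for Mrpl48 to 0.88 for Mrps6, and 48 lie above 0 (solid line); the dotted lines mark a 2-fold change.

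Log2 fold changes were above 0 for 48 genes and below 0 for 29, or 37.7%, against 8376 of all 16749 genes tested, and their median was 0.12, against -0.0001. Both YKL libraries lay above both DMSO libraries for 28 genes, or 36.4%, against 27.0% of all genes tested, and below both for 10, or 13.0%, against 25.3%. Libraries of the same group also differed from each other in this set. DMSO replicate 1 was above DMSO replicate 2 for 61 of 77 genes, or 79.2%, against 49.9% of all genes tested. The median log2 ratio of DMSO replicate 2 to DMSO replicate 1 was -0.24 for the mitoribosomal genes and 0.0 for all genes. In the YKL pair, replicate 2 was above replicate 1 for 61 of 77 genes, against 50.3% of all genes tested, with a median log2 ratio of 0.14.

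Against DMSO replicate 1 the median log2 ratio was -0.07 in YKL replicate 1 and 0.09 in YKL replicate 2, and against DMSO replicate 2 it was 0.14 and 0.27. The median fold change was -0.02 without DMSO replicate 2 and 0.21 without DMSO replicate 1, so the direction of the set's median was not stable to the choice of vehicle library. Without YKL replicate 2 it was 0.03, and without YKL replicate 1 it was 0.17. Summed over the 78 genes, the level was 3577 CPM in DMSO replicate 1, 3070 CPM in DMSO replicate 2, 3458 CPM in YKL replicate 1 and 3772 CPM in YKL replicate 2. The summed level of the groups overlapped.

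The set was expressed at an even, moderate level in these cells. The mean over the 4 libraries ran from 2.49 CPM for Mrpl23 to 111 CPM for Mrpl28 among the tested genes, with quartiles of 28.1, 40.9 and 60.7 CPM. Tested protein-coding genes had a similar median, 32.9 CPM, but wider quartiles of 7.78 and 81.8 CPM. Mrpl23 and Mrps33 alone among tested members had a mean under 10 CPM. The genes lie on 17 chromosomes, with 11 of them on chromosome 11.

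Per kilobase of all annotated exons, the highest levels were those of Mrpl28 at 86.8, Mrpl34 at 78.3, Mrpl12 at 65.1, Mrpl20 at 60.9 and Mrps23 at 60.2 CPM per kb. All but Mrps23 encode relatives of bacterial large subunit proteins, and Mrpl12 encodes the stalk protein that recruits elongation factors. The lowest of the tested genes were Mrpl23 at 0.511, Mrps10 at 2.07 and Mrps35 at 2.95 CPM per kb. Part of this order belongs to the length used, because several of these genes have long alternative exons: per kilobase of the principal transcript, Mrps10 stood at 16.4 and Mrps35 at 6.11 CPM per kb. On that scale Mrpl20 was highest at 132.5 CPM per kb and Mrpl23 remained lowest of the tested genes at 3.60 CPM per kb.

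**Figure D2:**
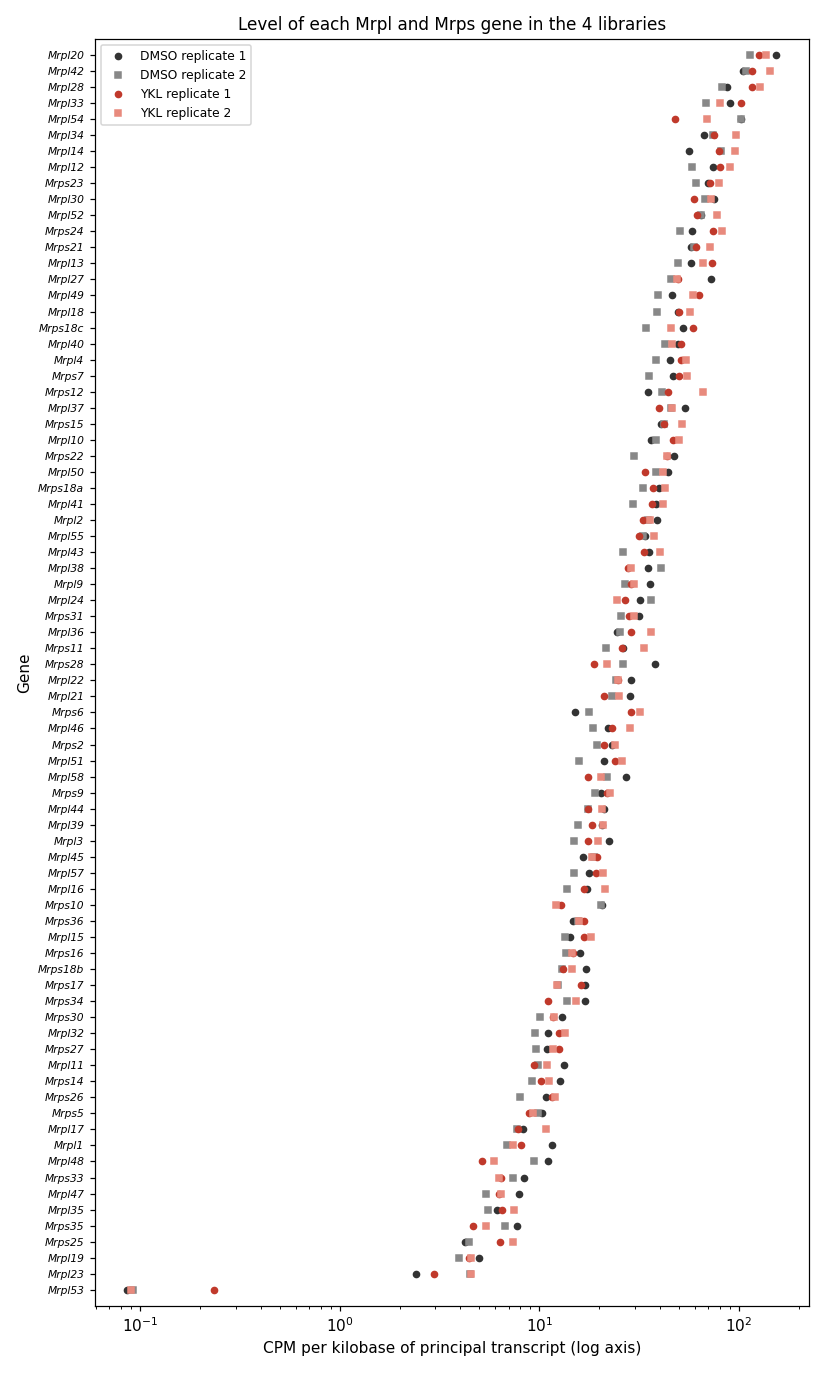
Level of each of the 78 genes in the 4 libraries, as CPM per kilobase of principal transcript on a log axis; dark symbols are DMSO, red symbols YKL, circles replicate 1 and squares replicate 2. Means of the tested genes run from 3.60 for Mrpl23 to 132.5 for Mrpl20, with the untested Mrpl53, whose counts give no level, at the bottom, and both YKL libraries lie above both DMSO libraries for 28 of the tested genes and below them for 10.

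The large subunit genes that descend from bacterial ones were 30, all tested, with a median log2 fold change of 0.16 and a range of -0.40 to 0.53, and 12 below 0. Mrpl28, which encodes the relative of bacterial L28, had the largest value. It lies on chr17:26123520-26126613 (mm10, plus strand) and had 93.0 and 87.9 CPM in DMSO and 124.6 and 136.8 CPM in YKL. The groups did not overlap, and the log2 fold change of 0.53 (SE 0.18, adjusted p = 0.128 with edgeR) did not pass the test.

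Mrpl12, the stalk gene, had 97.7 and 76.6 CPM in DMSO and 106.2 and 118.6 CPM in YKL, a log2 fold change of 0.37 with an interval of -0.07 to 0.80. Mrpl34 had 40.8 and 44.8 CPM in DMSO and 45.7 and 58.9 CPM in YKL. Mrpl20 had 117.3 and 86.8 CPM in DMSO and 96.0 and 104.9 CPM in YKL, so its YKL libraries fell between the DMSO libraries. That interleaved pattern was seen in 14 of the 77 genes.

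Mitochondria-specific genes of the large subunit were 21, 20 of them tested, with a median of 0.11 and 7 below 0. This class held the lowest fold changes of the whole set. Mrpl48 (ENSMUSG00000030706, chr7:100545751-100608301, minus strand) encodes a protein of the central protuberance, the part of the large subunit that faces the head of the small one. Its level was 47.1 and 40.2 CPM in DMSO and 22.1 and 25.4 CPM in YKL, or 43.7 ± 4.91 against 23.8 ± 2.38 CPM (SD, n = 2), with no overlap. The log2 fold change was -0.88 (SE 0.21, adjusted p = 0.0541), 1.84-fold lower, just outside the threshold. Other processing took it past the threshold: the adjusted p was 0.0456 with RLE scaling and 0.00857 with DESeq2.

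Mrpl54 (ENSMUSG00000034932, chr10:81264713-81266934, minus strand) encodes a protein at the base of the stalk. It had 62.0 CPM in each DMSO library and 29.01 and 41.84 CPM in YKL, a log2 fold change of -0.81 (SE 0.22, adjusted p = 0.0779). Both YKL libraries were lower, and they differed from each other more than the DMSO libraries did. DESeq2 called it, with an adjusted p of 0.0257. Mrpl38, another gene of the central protuberance, had 49.7 and 57.3 CPM in DMSO and 39.1 and 40.8 CPM in YKL, with a log2 fold change of -0.42 and an adjusted p of 0.244 in edgeR.

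In the other direction within this class, Mrpl49 had 81.9 and 69.1 CPM in DMSO and 111.0 and 103.5 CPM in YKL. The groups did not overlap, and its log2 fold change was 0.51 (SE 0.18, adjusted p = 0.156 with edgeR). Mrps30 and Mrps18a, the large subunit genes with small subunit symbols, showed little difference. Mrps30 had 43.2 and 33.4 CPM in DMSO and 38.8 and 39.4 CPM in YKL, with an interval of the log2 fold change from -0.44 to 0.49. Mrps18a had 35.2 and 29.3 CPM in DMSO and 33.0 and 37.6 CPM in YKL, with an interval of -0.34 to 0.60. Values of both genes overlapped between the groups.

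Small subunit genes with bacterial relatives were 16, all tested, with a median of 0.18 and 6 below 0, and they had the widest range, from -0.71 to 0.88. Mrps6 (ENSMUSG00000039680, chr16:92058270-92112227, plus strand), the relative of bacterial S6, had 12.8 and 14.98 CPM in DMSO and 24.4 and 26.9 CPM in YKL. That is 13.9 ± 1.52 against 25.6 ± 1.75 CPM (SD, n = 2), with no overlap. Its log2 fold change of 0.88 (SE 0.24, adjusted p = 0.0805) did not pass edgeR's test, and DESeq2 gave an adjusted p of 0.0174. Mrps6 shares 32.2% of the 50-base words of its principal transcript with other genes. On the same strand it shares 19.9% of its exonic bases with AC144408.3, which had at most 0.155 CPM in any library, and 10.4% with Slc5a3, whose level was 4.66 and 8.92 CPM in DMSO and 6.20 and 7.85 CPM in YKL.

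Mrps12 encodes the relative of S12, a protein of the decoding centre, and had 30.9 and 36.2 CPM in DMSO and 38.9 and 58.4 CPM in YKL. Its YKL libraries lay far apart, and the interval of its log2 fold change of 0.54 ran from 0.01 to 1.07. Mrps24, the relative of S3 at the mRNA entry, had 58.1 and 50.2 CPM in DMSO and 73.7 and 81.6 CPM in YKL, a log2 fold change of 0.52 with an adjusted p of 0.151 in edgeR. Neither gene passed the test, and in neither did the groups overlap. Mrps24 shares 15.4% of its exonic bases with Urgcp on the same strand, which had a log2 fold change of 0.47.

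Mrps10 and Mrps28 stood at the other end of this class. Mrps10, the relative of S10 in the head of the small subunit, had 20.9 and 20.6 CPM in DMSO and 13.1 and 12.3 CPM in YKL, a log2 fold change of -0.71 (SE 0.25, adjusted p = 0.147). Mrps28 had 29.6 and 20.7 CPM in DMSO and 14.8 and 17.1 CPM in YKL, a log2 fold change of -0.66 with an adjusted p of 0.194. Both had lower values in both YKL libraries, and neither passed edgeR's test. Mrps18c had 33.4 and 22.0 CPM in DMSO and 37.7 and 29.02 CPM in YKL, with overlapping groups.

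Mitochondria-specific small subunit genes were 10, all tested, with a median of 0.10 and 4 below 0. Mrps25 had 25.7 and 27.0 CPM in DMSO and 38.7 and 44.5 CPM in YKL, a log2 fold change of 0.66 (SE 0.20, adjusted p = 0.105). Mrps35 had 32.0 and 27.9 CPM in DMSO and 19.5 and 22.4 CPM in YKL, a log2 fold change of -0.52 with an adjusted p of 0.222. The groups did not overlap for these genes and edgeR called neither. Mrps23, the most abundant small subunit gene per kilobase of exon, had 92.7 and 81.6 CPM in DMSO and 95.9 and 105.4 CPM in YKL. Mrps18b, a paralogue of Mrps18a and Mrps18c, had 18.5 and 14.0 CPM in DMSO and 14.2 and 15.8 CPM in YKL, so the groups overlapped.

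Mrps36, whose product is no longer counted among the mitoribosomal proteins, had 10.3 and 10.98 CPM in DMSO and 11.7 and 11.1 CPM in YKL. Its log2 fold change was 0.10, with an interval of -0.55 to 0.75. With or without it, no class was set apart by its median: the classes lay between 0.10 and 0.18.

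The summed levels of the subunits followed the same order of libraries. The large subunit genes together had 2542 and 2198 CPM in DMSO and 2431 and 2675 CPM in YKL, and the small subunit genes 1024 and 860.8 CPM in DMSO and 1016 and 1087 CPM in YKL. In both subunits DMSO replicate 2 was the lowest library and YKL replicate 2 the highest, and the groups overlapped. The cytosolic ribosomal protein genes, which build the ribosome of the cytoplasm, differed from that pattern in these libraries. Of 84, 81 were tested, of which edgeR called 24 lower and none higher, with a median of -0.68 and 78 below 0. Their summed level in YKL was 53.7% and 66.2% of the DMSO mean, against 103% and 113% for the mitoribosomal large subunit and 108% and 115% for the small one. DMSO replicate 2 was at 104% and DMSO replicate 1 at 96.4% of the DMSO mean for the cytosolic genes, the opposite order to the mitoribosomal genes. The difference between the lists was not tested.

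The mRNAs that the mitoribosome translates are the 13 mitochondrially encoded protein-coding genes, of which 8 passed the filter. None was called by edgeR, 4 had an unadjusted p under 0.05, and all 8 had values above 0, with a median log2 fold change of 0.52. Their summed level was 10110 and 10550 CPM in DMSO and 11430 and 16820 CPM in YKL, or 111% and 163% of the DMSO mean. YKL replicate 2 stood well above the other libraries in this sum, as it was also the highest in the mitoribosomal sum.

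**Figure D3:**
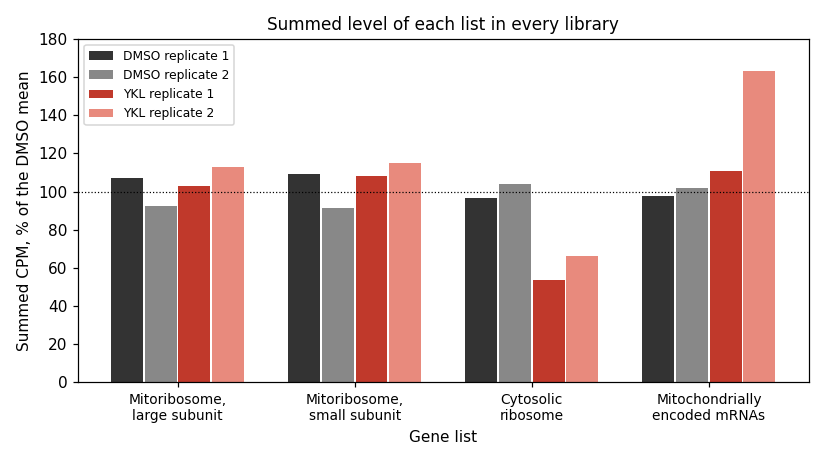
Summed CPM of 4 gene lists in each library, as a percentage of the mean of the DMSO libraries (dotted line at 100). The mitoribosomal subunits lie between 91.3% and 115% in all 4 libraries, the cytosolic ribosome is at 53.7% and 66.2% in YKL, and the mitochondrially encoded mRNAs reach 163% in YKL replicate 2.

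Mitoribosomal proteins with other symbols were not called either, with 0 of 5 called by edgeR, none at an unadjusted p under 0.05 and a median of -0.14. Dap3, the GTP-binding protein of the small subunit, had 99.8 and 105.9 CPM in DMSO and 134.1 and 125.5 CPM in YKL. Aurkaip1, another small subunit protein, had 94.9 and 69.5 CPM in DMSO and 57.4 and 66.4 CPM in YKL. Neither passed the test, although the groups did not overlap for either gene.

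Factors that assemble the mitoribosome or modify its RNA were 30, all tested. EdgeR called none, 4 had lower and 2 had higher values at an unadjusted p under 0.05, and the median was 0.03. The most abundant were Dhx30, an RNA helicase of the mitochondrial RNA granules, with 203.1 and 159.5 CPM in DMSO and 152.4 and 150.6 CPM in YKL, and C1qbp, a matrix protein, with 149.0 and 106.4 CPM in DMSO and 94.7 and 116.2 CPM in YKL. Of 16 translation factors and mRNA partners edgeR called none, with 1 lower and 2 higher at an unadjusted p under 0.05 and a median of 0.06. Lrpprc, which stabilises mitochondrial mRNAs, had 84.7 and 76.0 CPM in DMSO and 61.8 and 76.5 CPM in YKL. Gfm1, the mitochondrial elongation factor G, had 74.4 and 49.4 CPM in DMSO and 62.6 and 64.4 CPM in YKL.

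Among 13 transcriptional regulators of mitochondrial genes edgeR called 1, Nrf1, and their median was -0.09. Nrf1 encodes nuclear respiratory factor 1, an activator of many nuclear genes of mitochondrial biogenesis. It had 83.6 and 63.5 CPM in DMSO and 41.0 and 36.9 CPM in YKL, with no overlap, and fell by 0.92 on the log2 scale (SE 0.20, adjusted p = 0.0430). The call was close to the threshold: it was lost with total count scaling (adjusted p = 0.0693), with upper quartile scaling (0.0604), with no robust prior (0.0647) and when DMSO replicate 1 (0.0575), YKL replicate 1 (0.170) or YKL replicate 2 (0.250) was left out. Its direction held in all 13 alternatives.

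Because regulators of this kind bind close to start sites, the RefSeq promoters (GRCm38.p6, 250 bases before to 50 after the start) were searched on both strands for the core letters of 3 motifs. These were GCGCATG for NRF1, CCGGAAG for the ETS family that includes GABPA, and AAGATGG for YY1, none of which contains another. Promoters were matched for 69 of the 78 genes. The NRF1 letters were in 8 of them, or 11.6%, against 7.66% of the 10942 promoters of tested protein-coding genes and 4.41% of all 27025 promoters. The ETS letters were in 26, or 37.7%, against 18.5% and 9.93%. The YY1 letters were in 13, or 18.8%, against 7.89% and 7.28%. A match of letters is a description of the promoter and not evidence of binding.

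The 8 promoters with the NRF1 letters are shown first, since Nrf1 was the regulator that passed the test; each is a window of 30 bases read 5′ to 3′ on the gene's strand, with the motif or its reverse complement in capitals.
Mrpl9, chr3:94443297-94443326, plus strand: gaggcgcagctGCGCATGcgcggggtcctt
Mrpl10, chr11:97041567-97041596, plus strand: ctccgcgcagcGCGCATGggaacttcctgt
Mrpl17, chr7:105811080-105811109, minus strand: gccgagttactGCGCATGcgtcctctgaga
Mrpl22, chr11:58171620-58171649, plus strand: ggcctcggactGCGCATGcgtatagtcagc
Mrpl32, chr13:14613106-14613135, minus strand: ctttgacccttGCGCATGcgcaagaggggc
Mrpl33, chr5:31613928-31613957, plus strand: taccggaacccGCGCATGccccggaagtag
Mrpl39, chr16:84735351-84735380, minus strand: caaggagaggcGCGCATGcgcccccgcgtg
Mrps18b, chr17:35916644-35916673, minus strand: acggcccgacgCATGCGCactgggagcacc

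None of the genes with these letters was called. Their log2 fold changes were 0.38 for Mrpl10, 0.33 for Mrpl32, 0.23 for Mrpl17, 0.21 for Mrpl33, 0.12 for Mrpl39, -0.10 for Mrpl9, -0.10 for Mrpl22 and -0.12 for Mrps18b, so 3 of the 8 were below 0. Their median was 0.16, and that of the 60 tested members without the letters was 0.12. The median of the 8 turned to -0.06 without DMSO replicate 2, with 5 below 0, and was 0.31 without DMSO replicate 1. Mrpl32, with 5 matches in its promoter counting both strands, had 33.5 and 28.5 CPM in DMSO and 37.6 and 40.3 CPM in YKL. Its groups did not overlap. Of the 4 genes with 2 matches, Mrpl10 and Mrpl39 had values above 0 and Mrpl9 and Mrps18b below. Matches on opposite strands can overlap: the 2 of Mrpl9 and the 2 of Mrpl39 do, and such a pair is among the 5 of Mrpl32. For the ETS letters the medians were 0.18 in the 25 tested genes with them and 0.10 in the 43 without, and that of the 25 was -0.02 without DMSO replicate 2.

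The YY1 letters are shown for 4 of the 13 genes that hold them: the 3 among the largest increases in the set, and Mrpl37, the only one with a value below 0.
Mrps12, chr7:28742001-28742030, minus strand: catggacgcagCCATCTTggagtggaaaca
Mrps24, chr11:5707652-5707681, minus strand: cgggtcgcgccggcccAAGATGGcgtggtc
Mrpl49, chr19:6057721-6057750, minus strand: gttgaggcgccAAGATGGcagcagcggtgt
Mrpl37, chr4:107066822-107066851, minus strand: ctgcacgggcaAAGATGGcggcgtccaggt

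Genes with the YY1 letters had a median log2 fold change of 0.31, with 1 of 13 below 0, and the 55 tested members without them had a median of 0.08. Over all 863 tested protein-coding genes with these letters the median was -0.10, with 511 below 0, so higher values were not a general feature of such promoters in these libraries. Leaving out DMSO replicate 2 took the median of the 13 genes to 0.15, and leaving out each of the other libraries gave 0.21 to 0.41. No test was made of this split.

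Many of these genes share a start region with a neighbour on the other strand. A protein-coding neighbour with its start within 1000 bases, or overlapping by up to 500, was found for 26 of the 77 tested genes, or 33.8%, against 13.5% of tested protein-coding genes. Mrpl46 and Mrps11, 1 gene of each subunit, form such a pair on chromosome 7. Mrpl46 had 25.1 and 21.04 CPM in DMSO and 26.2 and 32.3 CPM in YKL, and Mrps11 had 27.7 and 22.7 CPM in DMSO and 27.3 and 35.2 CPM in YKL. Their log2 fold changes were 0.34 and 0.31, and in both the order of the 4 libraries had DMSO replicate 2 lowest and YKL replicate 2 highest. The summed level of the whole set had the same lowest and highest libraries. Mrpl46 and Mrps11 also share 173 exonic bases on opposite strands, 12.2% of those of Mrpl46 and 7.97% of those of Mrps11.

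The signs were the same in 12 of 26 pairs, counting Mrpl46 and Mrps11 from each side, and none of the partners was called by edgeR. Mrps12 had a log2 fold change of 0.54 and its neighbour Sars2, the mitochondrial seryl-tRNA synthetase, one of -0.92 with 18.8 and 20.8 CPM in DMSO and 9.33 and 11.6 CPM in YKL (adjusted p = 0.0958). Mrpl49 stood at 0.51 and Fau, which encodes a cytosolic ribosomal protein fused to a ubiquitin-like domain, at -0.42. Mrps7 stood at 0.35 and Gga3 at -0.67. Mrpl54 and Apba3 both had values below 0, at -0.81 and -0.48. Sars2, Fau, Gga3 and Apba3 were chosen after their values were seen.

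Some of the levels depend on how reads of shared sequence were counted. Of the 78 genes, 17 shared more than 20% of the 50-base words of their principal transcript with another gene, and 29 shared none. Mrpl53 shared 100% with Gm42688, a gene annotated over it on the same strand, and was the member that failed the filter, with 2, 2, 5 and 2 counts, or 0.06, 0.06, 0.16 and 0.06 CPM. Gm42688 itself had 0.372 to 1.08 CPM in the 4 libraries. Those counts do not give a level for Mrpl53, since reads that match both genes cannot be told apart.

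Mrpl23, the lowest of the tested genes, shared 76.4% with the processed pseudogene Mrpl23-ps1. It had 56 and 98 counts in DMSO and 63 and 101 counts in YKL, or 1.67 and 3.11 against 2.06 and 3.13 CPM, and the pseudogene had 22, 13, 4 and 14 counts. Replicate 2 was the higher library of each group, and the interval of the log2 fold change, -0.99 to 1.23, was the widest in the set. Mrps25 shared 73.9%, almost all with exons of Nr2c2 on the other strand, which had 134.0 and 99.1 CPM in DMSO and 87.5 and 81.0 CPM in YKL. The log2 fold change was 0.66 for Mrps25 and -0.47 for Nr2c2, so the genes differed in direction. Mrps18b shared 63.7% and Mrps34 52.4%. The levels of these genes are uncertain for that reason, whereas Mrpl28 shared no word with another gene.

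Over the 61 tested genes with under 10% of their exonic bases annotated to another gene as well, the median log2 fold change was 0.10, with 25 below 0. That count still holds genes such as Mrpl23, whose shared words lie in a copy elsewhere in the genome. Across the 77 genes, which share the same 4 libraries, the correlation of the log2 fold change with the log2 mean level was 0.229 and with the log2 exon length -0.139.

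**Figure D4:**
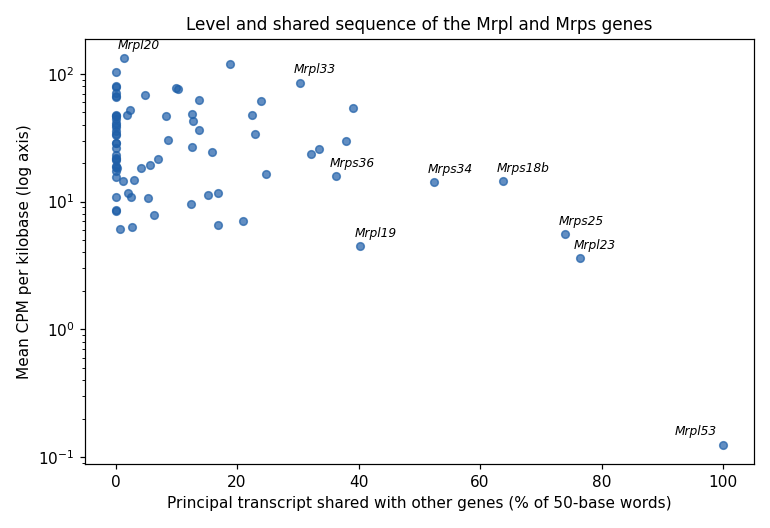
Mean level over the 4 libraries, as CPM per kilobase of principal transcript on a log axis, against the share of the transcript's 50-base words that also occur in another gene; each point is 1 of the 78 genes. Mrpl53 at 100% and Mrpl23 at 76.4% shared sequence are the lowest points, where counts of shared reads leave the level uncertain, and Mrpl20 at 1.4% is the highest.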

How the data were processed

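Per the submitters' processing notes, STAR 2.5.2b, featureCounts and the mm10 build were used to turn the reads of the 4 libraries into counts. The strand setting is not given in the sources used here. The authors deposited raw counts per gene for each library. They also deposited their own DESeq2 table, giving for each gene a mean signal, log2 fold change, error, test score and p-value, used here only beside the results above. Counts were tested with edgeR 4.0.16 in R 4.3.3: filterByExpr (minimum count 10, minimum total 15), TMM scaling, then glmQLFit and glmQLFTest (robust), with Benjamini-Hochberg adjustment over all genes and a threshold of 0.05. The standard error is the absolute log2 fold change over the square root of F, and the 95% interval was taken from it. EdgeR's common coefficient of biological variation came to 25%. Whether libraries are separate cultures is not stated in the labels, and p-values then reflect only the spread between these samples. The procedure was tested on simulated data. The genes and lists were chosen with earlier results of these data known.

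Genes were named by rule: called members, the 6 largest increases and 6 largest decreases at a mean of at least 5 CPM, the 5 highest and 3 lowest per kilobase of exon, Mrps36, the Mrps18 paralogues, Mrps30, untested members, and in each list the called genes or the 2 most abundant. Others are marked as chosen after their values were seen, or illustrate a motif, a neighbour or shared sequence. Tried as alternatives were other scalings (RLE, upper quartile, total count), an unfiltered table, a 5 CPM filter, a replicate block, a prior that is not robust, DESeq2 1.42.0, a table of protein-coding genes, and leaving out each library. The median over members with under 10% shared exonic bases was added after seeing the data. Gene positions and lengths came from GENCODE M21 and the deposited tables. Figures were drawn with matplotlib 3.10.9. Some marker genes are not reported here.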

Additional observations from a re-analysis of the deposited data

How the results depend on the processing

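EdgeR called 593 genes in all. The count was 169 with total count scaling, 331 with upper quartile scaling, 236 without a robust prior, 1740 with no filter, 1466 with DESeq2 and 71 to 2453 with a library left out. Mitoribosomal genes called lower numbered 0 with edgeR as described, 1 with RLE scaling, 2 with no filter or DESeq2 and 0 to 3 with a library left out. Among all genes tested, those called lower were 1.44% with edgeR as described, 1.8% with RLE scaling and 2.78% with no filter. With DESeq2 they were 4.95% of all genes with an adjusted p. Mitoribosomal genes called higher were 0 of 77 with edgeR as described, against 2.1% of all genes tested. With no filter they were 1 of 78, against 3.01%. DESeq2 called 1 mitoribosomal gene higher, against 5.28% of all genes with an adjusted p. With all libraries kept, the mitoribosomal calls came from Mrpl48, Mrpl54 and Mrps6. Without DMSO replicate 2, Mrps28 had a log2 fold change of -0.93, against -0.66 with all libraries. The cause of these differences was not tested.

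The median log2 fold change of the set was 0.10 to 0.14 under the alternatives that kept all libraries, and -0.02 to 0.21 with a library left out, turning below 0 without DMSO replicate 2. The number of genes below 0 was 17 to 41 with a library left out. The genes with both YKL libraries below DMSO numbered 10 to 33 and those above 30 to 53, where fewer libraries make such an order more common. Of 29 named genes, 22 kept their direction in all alternatives. Mrpl20 gave 0.003 with upper quartile scaling and Mrps30 gave -0.0032 with no filter. With a library left out, the ranges were -0.26 to 0.21 for Mrpl20, -0.26 to 0.60 for Mrpl23, -0.03 to 0.27 for Mrps18a, -0.34 to 0.10 for Mrps18b, -0.04 to 0.61 for Mrps18c, -0.18 to 0.23 for Mrps30 and -0.26 to 0.36 for Gfm1, each with an end at the removal of a DMSO library.

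The labels number the replicates of both groups 1 and 2, and nothing says that a number marks a shared culture or day. The correlation of the deviations of same-numbered libraries was 0.152 over 16749 genes. With the replicate block edgeR called 1387 genes, or 8.28% of those tested, 3.59% lower and 4.69% higher. Of 77 mitoribosomal genes, 2 were called lower, Mrpl48 and Mrpl54, and 1 was called higher, Mrps6.

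With 2 libraries a group and 2 residual degrees of freedom, the 1.84-fold difference of Mrpl48 was not called by edgeR. Changes of that size or smaller can thus be missed. Mrpl23, Mrpl53, Mrps25, Mrps18b and Mrps34 are among the members that share much of their sequence with other genes.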
